A study of Mus musculus with 2 samples.

Results

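Wnt proteins are secreted, lipid-modified growth factors that bind Frizzled receptors on the cell surface. The genes described here are the Wnt ligands, the Frizzled (Fzd) receptors, the secreted Frizzled-related proteins (Sfrp) and the Dickkopf (Dkk) proteins of mouse. A gene row was taken when its name was Wnt, Fzd, Sfrp or Dkk followed directly by a number and at most 1 letter. This found 37 of 49585 gene rows, namely 19 Wnt, 10 Fzd, 4 Sfrp and 4 Dkk genes, and each has 1 row in both libraries.

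RNA sequencing compared cultured Nestin+ cells, labelled mesenchymal stem cells, from the heart and from the bone marrow of C57BL/6 mice that were 7 days old and carried a Nestin-GFP transgene, a green fluorescent reporter of the intermediate filament gene Nes. The medium of the heart cells was DMEM/F12 and IMDM with N2 and B27 supplements, 20 ng/ml of EGF, 20 ng/ml of bFGF and 4 ng/ml of cardiotrophin-1. Bone marrow cells were kept in a different medium, taken from an earlier publication. Both cultures were at passage 10 and each gave 1 library, so tissue, medium and culture cannot be told apart and no difference below has a replicate check. How many animals were pooled is not stated in the labels.

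A Wnt ligand that reaches a Frizzled receptor together with the co-receptors Lrp5 or Lrp6 keeps beta-catenin from being destroyed, and beta-catenin then acts with TCF/LEF factors on target genes. Other ligands signal without beta-catenin, through receptors such as Ror2, on cell polarity and calcium. Sfrp proteins bind Wnt ligands outside the cell, and Dkk1, Dkk2 and Dkk4 bind Lrp5 and Lrp6. In bone, this pathway is known for driving osteoblast formation, and in the heart for its part in early patterning and in repair.

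Values are RPKM, read counts corrected for gene length and for library size, so that levels of different genes can be set side by side. The read totals recovered from the values were 64872683 for heart and 53999963 for bone marrow. All 6 stromal markers checked, such as Pdgfrb and Col1a1, stood above 1 RPKM in both libraries. None of the 21 markers of endothelial, macrophage and leukocyte, cardiomyocyte, erythroid, epithelial or glial cells reached 1 RPKM in either. The summed level of each of these 6 lists was at most 0.558 RPKM in heart against 0.607 in bone marrow. The 3 erythroid markers were listed at 0 in both libraries, and so were Ptprc and Adgre1 in heart. Nes itself stood at 8.74 RPKM in heart cells and 1.20 in bone marrow cells. In bulk RNA, fewer cells that express a gene and less RNA per cell cannot be told apart.

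Of the 17 genes that reached 1 RPKM, 12 had the lower value in heart. The ligand gene Wnt10b, the receptor genes Fzd5 and Fzd8 and the inhibitor gene Sfrp4 were at least 2-fold lower in heart, while the most abundant receptor gene, Fzd1, leaned toward heart, and Dkk3, the most abundant Dkk gene, was nearly level. Of the 37 genes, 20 were below 1 RPKM in both libraries, 17 reached 1 RPKM in at least 1 library and, of these, 10 reached 5 RPKM. A gene was counted as higher in a library when log2((heart + 1)/(bone marrow + 1)) on RPKM, called the log2 ratio here, had a size of 1 or more and its level there was 5 RPKM or more. By that rule 0 of the 10 genes were higher in heart and 4 were higher in bone marrow. Over all 7659 genes that reached 5 RPKM, the share was 7.56% for heart and 9.51% for bone marrow. Dividing the heart values by the median ratio of abundant genes, which adds 0.15 to their log2 ratios, moved the split to 1 in heart, Fzd1, and the same 4 in bone marrow.

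With a floor of 1 RPKM in place of 5, 1 of 17 genes was higher in heart, Dkk2, and 7 were higher in bone marrow, the further ones being Wnt4, Fzd6 and Sfrp2. Over the 11355 genes at or above 1 RPKM, 7.78% and 9.26% met that rule. Of the 17 genes, 5 had the higher value in heart and 12 in bone marrow, where 58% of the 11355 genes also had the higher value. The median log2 ratio of the 17 was -0.93, against -0.11 over the 11355 genes. In heart, 12 of the 37 genes reached 1 RPKM, with Fzd1, Dkk3, Fzd2, Sfrp1 and Fzd7 at the top in falling order of RPKM. In bone marrow 14 did, with Dkk3, Fzd1, Fzd2, Fzd5 and Fzd7 at the top.

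**Figure D1:**
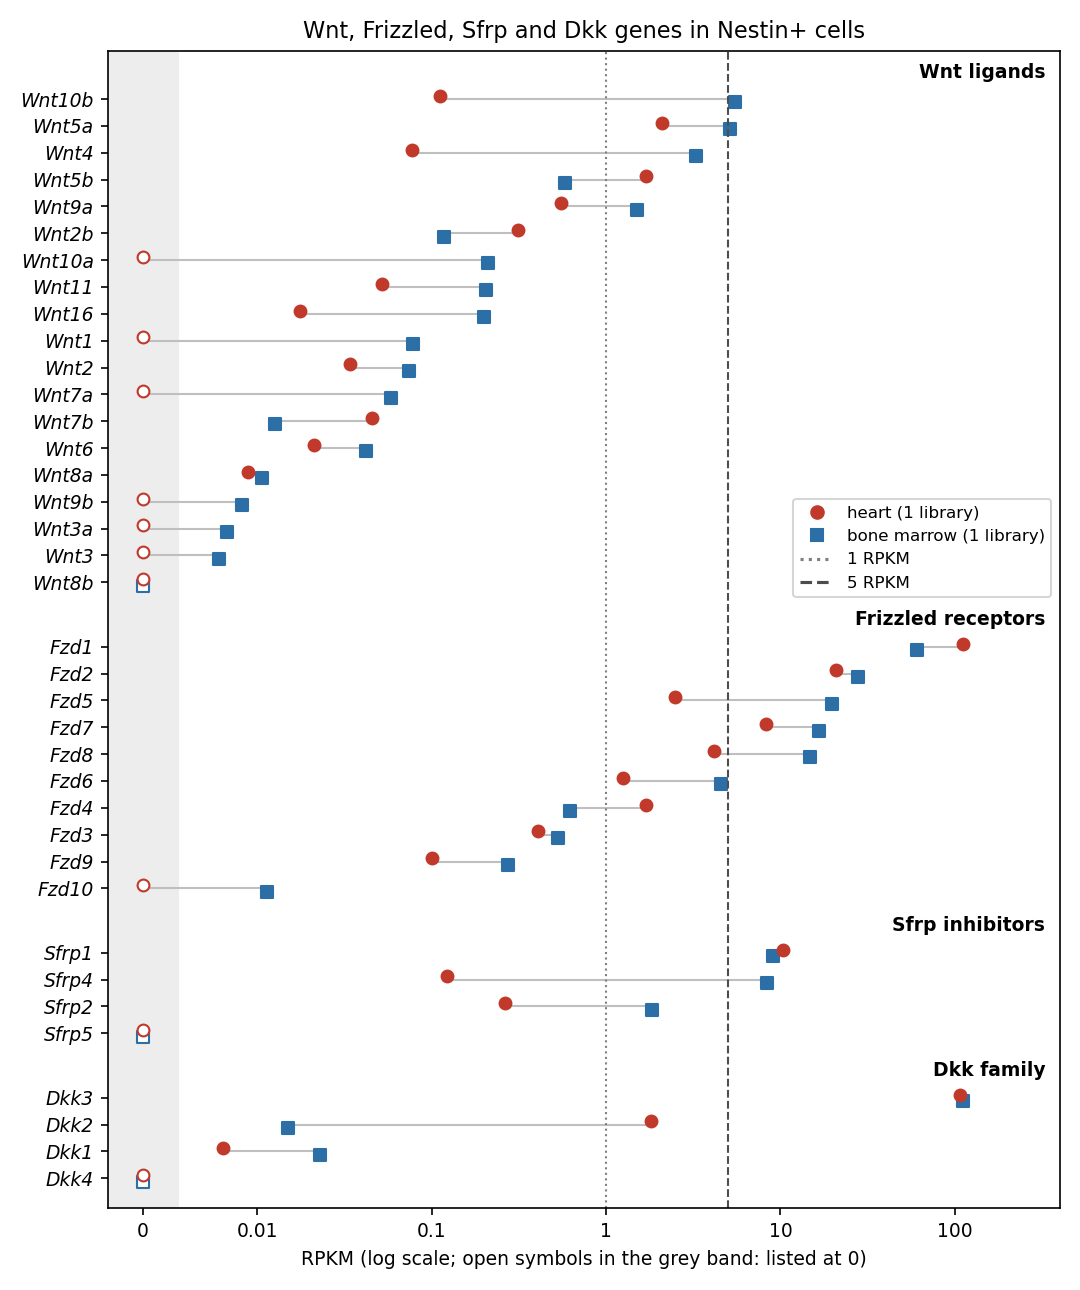
RPKM of all 37 genes in heart (circles) and bone marrow (squares) on a log axis, 1 library each, with lines at 1 and 5 RPKM and open symbols for values listed at 0. Fzd1 and Dkk3 lie furthest right in both libraries, and Wnt10b, Wnt4, Sfrp4 and Dkk2 have the widest gaps among genes above 1 RPKM.

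The start regions of 4 genes are shown because they differ in base make-up: the receptor gene Fzd5 and the ligand gene Wnt10b, both higher in bone marrow, the leading receptor gene Fzd1, and Dkk2, the gene with the largest ratio toward heart. Each runs from 250 bases before to 50 after the RefSeq start site (GRCm38.p6), 5′ to 3′ on the gene's strand, with each CG pair in capitals. They lie at chr1:64737701-64738000 on the minus strand (Fzd5), chr15:98778101-98778400 on the minus strand (Wnt10b), chr5:4758167-4758466 on the minus strand (Fzd1) and chr3:132085042-132085341 on the plus strand (Dkk2). The choice was made after the values were seen.
Fzd5: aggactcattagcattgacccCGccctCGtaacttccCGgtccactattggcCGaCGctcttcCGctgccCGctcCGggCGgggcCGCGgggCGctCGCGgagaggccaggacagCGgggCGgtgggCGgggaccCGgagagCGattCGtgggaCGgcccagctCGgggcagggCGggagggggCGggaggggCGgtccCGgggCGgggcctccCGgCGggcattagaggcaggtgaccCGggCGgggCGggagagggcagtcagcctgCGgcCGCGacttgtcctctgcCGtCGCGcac
Wnt10b: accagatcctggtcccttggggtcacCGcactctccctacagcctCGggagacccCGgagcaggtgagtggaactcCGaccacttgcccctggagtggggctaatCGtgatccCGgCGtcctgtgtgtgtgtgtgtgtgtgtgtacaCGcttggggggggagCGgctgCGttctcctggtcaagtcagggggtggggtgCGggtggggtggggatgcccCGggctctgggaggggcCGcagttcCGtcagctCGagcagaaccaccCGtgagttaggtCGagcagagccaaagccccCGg
Fzd1: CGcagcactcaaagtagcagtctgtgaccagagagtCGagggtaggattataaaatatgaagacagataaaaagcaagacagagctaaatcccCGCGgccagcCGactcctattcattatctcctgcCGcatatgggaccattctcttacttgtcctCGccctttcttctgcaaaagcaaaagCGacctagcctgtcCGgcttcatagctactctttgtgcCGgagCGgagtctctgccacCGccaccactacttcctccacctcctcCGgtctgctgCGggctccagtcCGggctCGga
Dkk2: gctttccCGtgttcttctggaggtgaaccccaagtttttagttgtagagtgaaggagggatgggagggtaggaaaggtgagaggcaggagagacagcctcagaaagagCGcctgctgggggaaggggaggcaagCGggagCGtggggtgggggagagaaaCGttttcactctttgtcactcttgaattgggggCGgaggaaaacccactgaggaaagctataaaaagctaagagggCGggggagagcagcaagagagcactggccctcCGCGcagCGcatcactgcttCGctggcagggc

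These regions hold 38 CG pairs for Fzd5, 18 for Wnt10b, 16 for Fzd1 and 11 for Dkk2. That order comes from picked genes, and a link of CG pairs to direction was not tested. Among other genes at or above 1 RPKM with a higher value in heart, Fzd4 held 32 and the Wnt5b regions 47, 7 and 4. Among those with a higher value in bone marrow, Wnt4 held 51, Wnt9a 58, Fzd7 24 and Sfrp2 22. RefSeq promoters were matched for 25 of the 37 genes, 28 regions in all because Wnt5b and Wnt11 have several starts. No entry was matched for Wnt5a, Wnt7b, Wnt8a, Wnt10a, Fzd2, Fzd3, Fzd6, Fzd8, Sfrp1, Sfrp4, Dkk3 and Dkk4. The 28 regions had a median of 26.5 CG pairs and a GC content of 68.7%, against 7 CG pairs and 52.7% over all 32851 promoters in the table. CG-rich starts were not limited to the expressed genes: the median was 23 CG pairs for regions of genes at or above 1 RPKM and 28 for those of genes below it.

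The core of the TCF/LEF binding motif was searched as CTTTGAA and as CTTTGAT, on both strands. One or the other was found in 3 of the 28 regions, 10.7%, against 8.65% of all promoters (5.14% hold CTTTGAA and 3.73% CTTTGAT). None of the 4 regions above holds either, nor does that of Fzd7. The 3 matches were CTTTGAA at -117 to -111 from the start site of Dkk1, and CTTTGAT in 1 start region each of Wnt11, at -51 to -45 on the opposite strand, and Wnt5b, at -71 to -65. The Wnt5b region, chr6:119449337-119449636 on the minus strand, is shown with the match in capitals because Wnt5b was the most abundant of these 3 genes. Its start site lies 94961 bases inside the Wnt5b gene model, so it is an internal start, and the values do not tell which start was used.
Wnt5b: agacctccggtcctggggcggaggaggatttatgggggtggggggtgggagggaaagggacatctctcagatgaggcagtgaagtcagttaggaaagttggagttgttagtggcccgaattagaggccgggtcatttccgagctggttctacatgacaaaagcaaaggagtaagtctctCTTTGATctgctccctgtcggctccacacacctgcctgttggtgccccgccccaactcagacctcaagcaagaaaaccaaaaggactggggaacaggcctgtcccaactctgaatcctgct

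Ligand genes were low in both libraries, and their sum was lower in heart. The RPKM of the 19 Wnt genes summed to 5.01 in heart and 17.0 in bone marrow. Wnt5a and Wnt5b together made up 75.4% of the sum in heart and 33.7% in bone marrow, where Wnt10b held 32.2% and Wnt4 19.2%. In heart, Wnt10b held 2.24% and Wnt4 1.54%.

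Wnt10b, a ligand of the beta-catenin branch that promotes bone formation in mice, stood at 0.112 RPKM in heart (34 reads) and 5.47 in bone marrow (1380 reads). It was 48.8-fold higher in bone marrow, with a log2 ratio of -2.54 and a 95% counting interval of 34.7 to 70.7. Such intervals, here and below, reflect counting error alone. The reads of Wnt10b rest on a searched length and can be a whole multiple of the true ones, so its interval can be too narrow. Its neighbour Wnt1 lies 11706 bases away on chromosome 15 in the opposite orientation and had 0 reads in heart and 10 in bone marrow. The chromosome 15 neighbours differed widely in level within bone marrow, at 5.47 RPKM for Wnt10b and 0.0779 for Wnt1.

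Wnt4, a ligand needed for kidney and female reproductive tract development, stood at 0.0772 RPKM in heart against 3.26 in bone marrow, from 21 and 739 reads. The ratio of bone marrow to heart was 42.3, with a counting interval of 27.5 to 68.7. Its higher value is under the floor of 5 RPKM, so it does not count under the main rule. Wnt9a, which takes part in joint formation, stood at 0.551 RPKM in heart cells and 1.50 in bone marrow cells and was 2.73-fold higher there (2.19 to 3.41), with a log2 ratio of -0.69.

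Wnt5a, the best known ligand of the branches that work without beta-catenin, stood at 2.09 RPKM in heart (1059 reads) and 5.15 in bone marrow (2175 reads). Its gene model lies on chromosome 14 from 28504750 to 28527447 on the plus strand (GRCm38). Its log2 ratio of -0.99 lay just outside the 2-fold rule. The ratio of bone marrow to heart on the RPKM themselves was 2.47 (2.29 to 2.66), and with a pseudocount of 0.1 in place of 1 it was counted as higher in bone marrow. Its close relative Wnt5b went the other way, at 1.69 RPKM in heart (291 reads) and 0.579 in bone marrow (83 reads), a ratio of heart to bone marrow of 2.92 (2.28 to 3.77) and a log2 ratio of 0.77. Fbxl14, a gene on the strand opposite to Wnt5b and inside its span, stood at 7.24 RPKM in heart against 9.26 in bone marrow. The gene models of Fbxl14 and Wnt5b share 0 exon bases.

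The other 14 Wnt genes were below 1 RPKM in both libraries. Wnt2b was the highest of them, at 0.311 RPKM in heart cells and 0.117 in bone marrow cells, 2.66-fold higher in heart (1.61 to 4.57) from 67 and 21 reads. Wnt10a, the paralogue of Wnt10b, had 0 reads in heart and 28 in bone marrow. Against a floor of 3 reads in the heart library, this was 11.2-fold higher in bone marrow (lower counting limit 8.53). Wnt16 had 5 reads in heart and 47 in bone marrow, and Wnt11 had 14 and 46, with ratios of bone marrow to heart of 11.3 (4.51 to 36.4) and 3.95 (2.13 to 7.77). Wnt1 and Wnt7a each had 0 reads in heart and 10 in bone marrow, 4.00-fold higher in bone marrow against the same floor, with a lower counting limit of 2.69.

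At this depth the remaining ligand genes with recovered reads could not be told apart between the libraries. Wnt2 had 5 reads in heart and 9 in bone marrow, a ratio of heart to bone marrow of 0.462 with an interval of 0.122 to 1.54, and Wnt6 had 3 and 5. Wnt3, Wnt3a, Wnt8a and Wnt9b had at most 1 read in heart and 2 in bone marrow. Wnt8b was at 0 reads in both. Wnt7b was listed at 0.0454 RPKM in heart against 0.0126 in bone marrow, and its reads could not be recovered.

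Of the 4 places where Wnt genes lie within 50 kb of each other, none had both genes at or above 1 RPKM in either library. Wnt9a stood at 1.50 RPKM in bone marrow and its neighbour Wnt3a on chromosome 11, 16175 bases away, at 0.00671. Wnt6 and Wnt10a on chromosome 1, and Wnt3 and Wnt9b on chromosome 11, were all at or below 0.210 RPKM in both libraries.

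**Figure D2:**
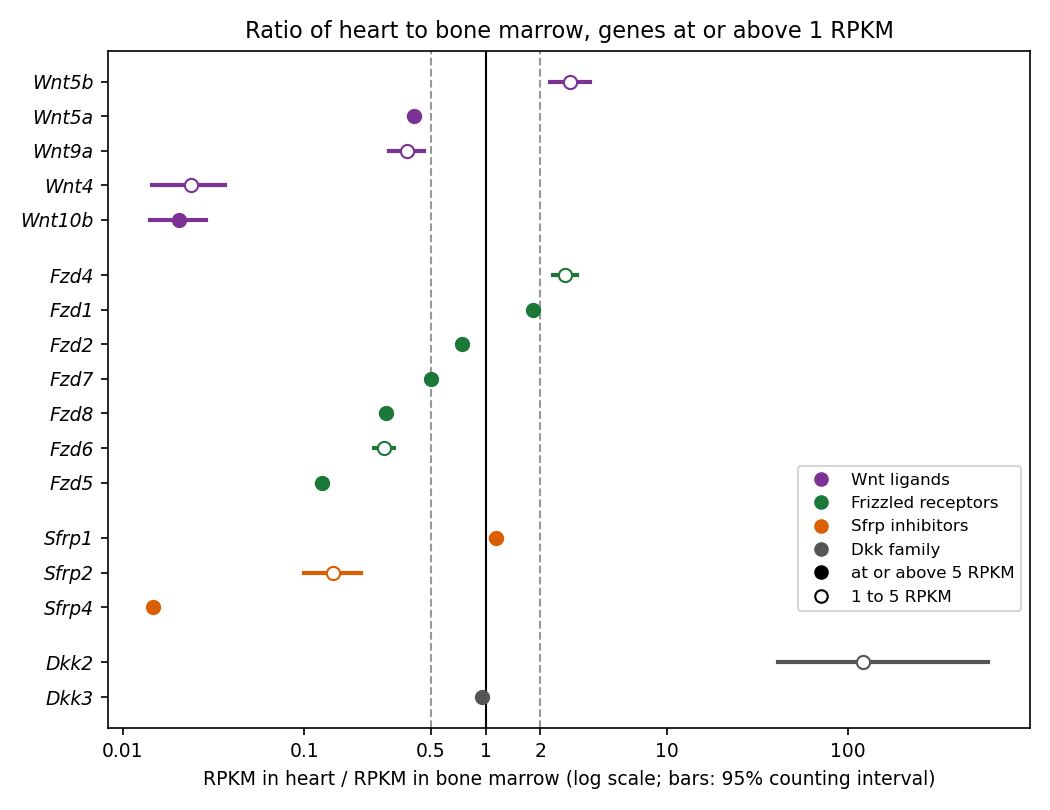
Ratio of heart to bone marrow RPKM on a log axis for the 17 genes at or above 1 RPKM, with 95% counting intervals where reads were recovered (all but Sfrp4) and dashed lines at 2-fold in each direction. The bar of Fzd8 rests on a searched length longer than its gene row and is too narrow. That of Wnt10b also rests on a searched length and can be too narrow. Filled points reach 5 RPKM in the higher library; Wnt5a, Wnt10b, Fzd5, Fzd8 and Sfrp4 among them lie left of the lower line, and Fzd7 lies at it.

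Receptor genes had nearly the same sum in both libraries but a different make-up. The 10 Fzd genes summed to 150.2 RPKM in heart cells and 146 in bone marrow cells. Fzd1 alone held 74.0% of the sum in heart and 41.7% in bone marrow. Without Fzd1 the other 9 summed to 39.1 RPKM in heart against 85.1 in bone marrow, 2.17-fold higher in bone marrow.

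Fzd1, Fzd2 and Fzd7 are close sequence relatives and form one branch of the receptor family. Fzd1 stood at 111 RPKM in heart cells and 60.9 in bone marrow cells, from 30241 and 13805 reads, which put it above 97.2% of all genes of at least 1 RPKM in heart and 93.4% in bone marrow. Its ratio, heart to bone marrow, was 1.82 (1.79 to 1.86) and the log2 ratio 0.86, under 2-fold unless the libraries were scaled to a median ratio of 1, where it was 1.00. Fzd2 stood at 20.7 RPKM in heart against 27.9 in bone marrow, a ratio of 0.744 (0.716 to 0.773). Fzd7 stood at 8.28 RPKM in heart cells and 16.6 in bone marrow cells, a ratio of 0.497 (0.473 to 0.523), whose log2 ratio of -0.93 also lay just outside the 2-fold rule. The 3 genes together made up 93.3% of the Fzd sum in heart and 72.2% in bone marrow, although Fzd2 and Fzd7 had the lower value in heart.

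Fzd5 and Fzd8, which form another branch, were both lower in heart. Fzd5, a receptor needed for yolk sac vessels and the eye in mice, stood at 2.49 RPKM in heart (1117 reads) and 19.8 in bone marrow (7391 reads). It was 7.95-fold higher in bone marrow (7.46 to 8.47), with a log2 ratio of -2.57, the lowest of the receptor genes. Fzd8 had 4.15 RPKM in heart cells against 14.7 in bone marrow cells, a level 3.55-fold higher there, with a log2 ratio of -1.61. Its reads and interval are left out because they rest on a searched length longer than its gene row. The 2 genes made up 4.42% of the Fzd sum in heart and 23.7% in bone marrow. The next receptor gene in order in bone marrow after Fzd1 and Fzd2 was Fzd5, whereas in heart it was Fzd7.

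Among the lower receptor genes, Fzd6, which acts in hair and cell polarity, stood at 1.26 RPKM in heart against 4.57 in bone marrow, 3.64-fold higher in bone marrow (3.21 to 4.12) and under the floor of 5. Fzd4, which also serves as the receptor for the vessel-forming factor norrin, went toward heart, at 1.70 RPKM against 0.620 in bone marrow, a ratio of heart to bone marrow of 2.73 (2.35 to 3.19) and a log2 ratio of 0.73. Fzd3 was close to level at 0.408 RPKM in heart cells and 0.530 in bone marrow cells. Fzd9 had 15 reads in heart and 34 in bone marrow, 2.72-fold higher in bone marrow (1.44 to 5.38), and Fzd10 had 0 and 2. Fzd3 and Fzd6, which form a branch of their own, summed to 1.67 RPKM in heart and 5.10 in bone marrow, 3.06-fold higher in bone marrow, nearly all of that gap from Fzd6.

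**Figure D3:**
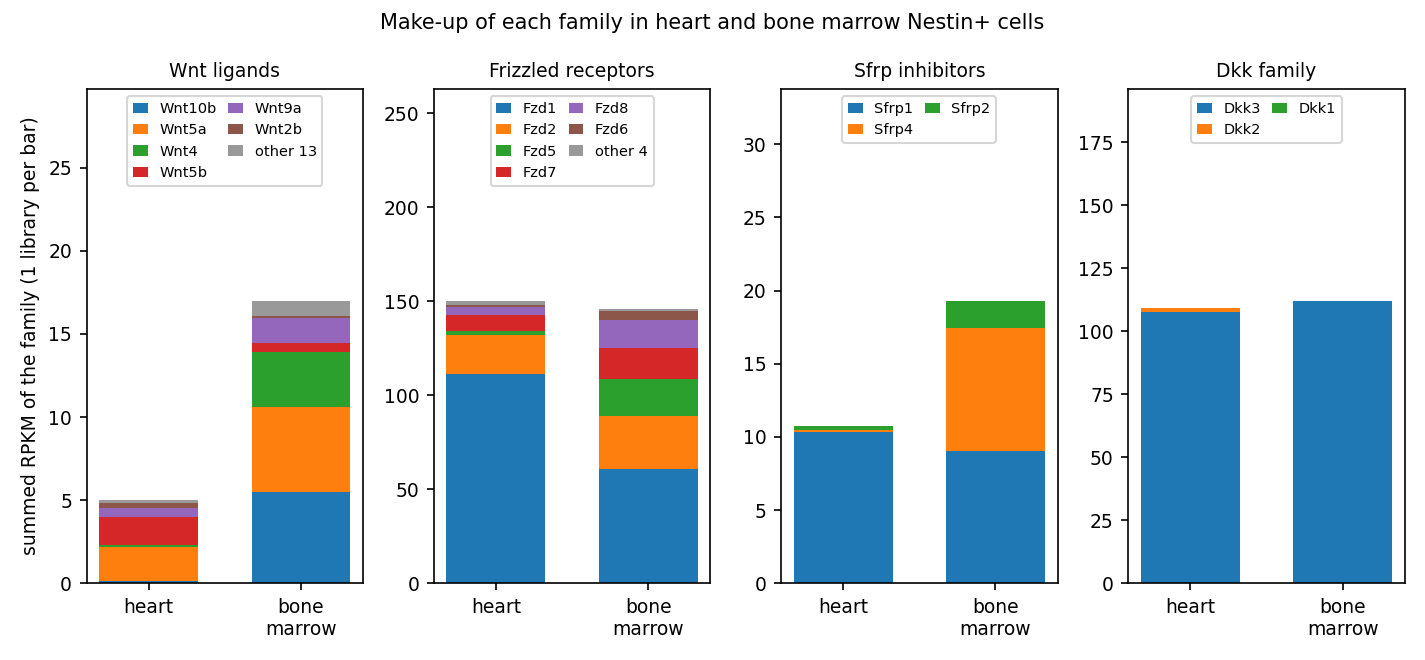
Summed RPKM of each family in heart (left bar) and bone marrow (right bar), 1 library per bar, divided by gene, with a separate linear axis for each family. The Fzd bars reach 150.2 and 146 RPKM, but Fzd1 fills 74.0% of the heart bar and 41.7% of the bone marrow bar, and Sfrp4 fills 1.15% of the heart Sfrp bar and 43.6% of the bone marrow Sfrp bar.

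Secreted Frizzled-related proteins carry a Frizzled-like domain that binds Wnt ligands. Sfrp1 was the leading member in both libraries, at 10.3 RPKM in heart (2933 reads) and 9.06 in bone marrow (2139 reads), a ratio of heart to bone marrow of 1.14 (1.08 to 1.21). The other Sfrp genes were low in heart. Sfrp4, which is needed for normal cortical bone in mice, stood at 0.123 RPKM in heart against 8.41 in bone marrow, a ratio of bone marrow to heart of 68.4 and a log2 ratio of -3.07, the lowest of the 37 genes. Its gene model lies on chromosome 13 from 19623175 to 19632821 on the plus strand. Its reads could not be recovered, so it has no counting interval.

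Sfrp2, a secreted Wnt modulator of stromal cells, stood at 0.265 RPKM in heart (37 reads) and 1.83 in bone marrow (213 reads), 6.92-fold higher in bone marrow (4.86 to 10.1), and Sfrp5 had 0 reads in both libraries. Without Sfrp1, the other 3 genes summed to 0.388 RPKM in heart cells and 10.2 in bone marrow cells. Sfrp1 made up 96.4% of the family sum in heart and 47.0% in bone marrow.

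Dkk3 is the divergent member of the Dickkopf family and, unlike the others, is not known as a blocker of Lrp5 and Lrp6. It was one of the most abundant of the 37 genes, at 108 RPKM in heart (23449 reads) and 112 in bone marrow (20332 reads). Its ratio, heart to bone marrow, was 0.960 (0.942 to 0.978) and the log2 ratio -0.06, which turned to between 0.03 and 0.09 under each of the 3 scalings, so no direction can be given. Its gene model lies on chromosome 7 from 112116017 to 112159057 on the minus strand. Dkk3 made up 98.3% of the Dkk sum in heart and nearly all of it, 99.97%, in bone marrow.

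Dkk2, which binds Lrp5 and Lrp6, was the gene with the largest ratio toward heart. It stood at 1.82 RPKM in heart, from 437 reads, and at 0.0150 RPKM in bone marrow, from 3 reads, a ratio of heart to bone marrow of 121 with a counting interval of 41.2 to 590.2. Its log2 ratio was 1.47, and its level in heart was under the floor of 5 RPKM. Dkk1, the best studied inhibitor of the family, had 1 read in heart and 3 in bone marrow, and Dkk4 had 0 in both.

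Other genes of the pathway were read from a list of 96 genes. Of the 52 that reached 5 RPKM, 4 were higher in heart (Ror1, Rspo3, Tle1 and Prickle1), 8 were higher in bone marrow (Porcn, Rspo2, Lgr5, Ccnd1, Myc, Fosl1, Nfatc1 and Prkca) and 40 were neither. Those counts stand beside the same 7.56% and 9.51% of all genes. Over the 71 genes that reached 1 RPKM the median was -0.20.

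Machinery that makes ligands was present in both. Wls, which carries Wnt proteins to the cell surface, stood at 138 RPKM in heart against 96.9 in bone marrow, a log2 ratio of 0.50. Porcn, the enzyme that attaches the lipid to Wnt proteins, stood at 1.97 RPKM in heart (384 reads) and 8.64 in bone marrow (1400 reads), 4.38-fold higher in bone marrow. Its log2 ratio was -1.70.

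All 6 co-receptor genes reached 5 RPKM, and 1 was at least 2-fold apart, beside 17.1% of all 7659 genes at that level. Ror1, a receptor tyrosine kinase that binds Wnt5a, stood at 14.7 RPKM in heart (5511 reads) and 1.69 in bone marrow (525 reads), 8.74-fold higher in heart (7.99 to 9.57). Its relative Ror2 had a log2 ratio of 0.28, the Frizzled partner Lrp5 0.30 and the polarity receptor Ptk7 -0.37.

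Of 13 other secreted or surface inhibitors, 7 were below 1 RPKM in both libraries. Of the 2 at or above 5 RPKM, 0 were 2-fold apart, beside 17.1% of all genes at that level. Those 2 were Tpbg, with a log2 ratio of 0.83, and Kremen1, which encodes a Dkk co-receptor, with -0.50. The other 4 that reached 1 RPKM are named too, a choice made after their values were seen. Frzb, a secreted Frizzled-related protein outside the numbered names, stood at 3.66 RPKM in heart (768 reads) and 0.0858 in bone marrow (15 reads), 42.6-fold higher in heart (25.7 to 76.5). Wif1, which binds Wnt ligands, had 2 reads in heart and 199 in bone marrow. Trabd2b, a protease that inactivates Wnt ligands, stood at 0.550 RPKM in heart (236 reads) and 2.95 in bone marrow (1054 reads), 5.37-fold higher in bone marrow (4.65 to 6.21). Apcdd1, a membrane inhibitor, stood at 0.176 RPKM in heart cells and 2.39 in bone marrow cells.

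R-spondins amplify Wnt signals through Lgr receptors. In this list Rspo2, Rspo3 and Lgr5 had the largest log2 ratios in size of all 96 genes, at -4.97, 4.69 and -4.58. Rspo3 stood at 25.5 RPKM in heart (5116 reads) and 0.0240 in bone marrow (4 reads), while Rspo2 stood at 0.362 RPKM in heart (156 reads) and 41.6 in bone marrow (14918 reads). The pair were far apart in opposite directions. The reads of Rspo2 rest on a searched length and can be a whole multiple of the true ones. Among the Lgr receptors that reached 5 RPKM, Lgr5 stood at 0.0210 RPKM in heart against 23.5 in bone marrow. Lgr4 stood at 3.10 RPKM in heart cells and 6.76 in bone marrow cells, a log2 ratio of -0.92.

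Inside the cell, 0 of 15 genes of the beta-catenin branch at or above 5 RPKM were 2-fold apart in either direction, where 17.1% of all 7659 genes were. The median log2 ratio of the 16 at or above 1 RPKM was -0.03, beside -0.11 over all genes. Ctnnb1, which encodes beta-catenin, stood at 254 RPKM in heart against 175 in bone marrow, a log2 ratio of 0.54. The largest values in size were -0.77 for Ctnnbip1, which encodes a blocker of the beta-catenin and TCF contact, 0.75 for the Dishevelled antagonist gene Dact3 and 0.69 for Btrc, part of the ligase that marks beta-catenin for destruction. Among nuclear partners at or above 5 RPKM, 1 of 6 was apart, beside the same 17.1% of all genes. It was the corepressor gene Tle1, at 5.57 RPKM in heart cells and 1.95 in bone marrow cells. Bcl9l, Tle3 and Ctbp1 had log2 ratios of -0.42, 0.37 and -0.18.

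Known targets of the beta-catenin branch had a median log2 ratio of -0.67 over the 8 at or above 1 RPKM, beside -0.11 over all genes. Of the 6 that reached 5 RPKM, 0 were higher in heart and 3 in bone marrow, beside 7.56% and 9.51% of all genes. Ccnd1, which encodes a cyclin of the G1 phase, stood at 15.5 RPKM in heart against 106 in bone marrow, the growth regulator gene Myc at 6.00 and 22.6, and the AP-1 gene Fosl1 at 2.48 and 16.2. These 3 also respond to growth factors outside the Wnt pathway. The matricellular gene Wisp1 had a log2 ratio of -0.54. Axin2, which is read most often as a direct target of the branch, stood at 0.241 RPKM in heart (86 reads) and 1.18 in bone marrow (350 reads), 4.89-fold higher in bone marrow (3.85 to 6.26), with a log2 ratio of -0.81 at these low levels. Nkd2, Jun and Bambi had log2 ratios of -0.53, -0.49 and 0.12. Nkd1, below 1 RPKM in both libraries, was level at -0.01.

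In the planar polarity and calcium branches, 1 of 11 genes at or above 5 RPKM was higher in heart, 2 were higher in bone marrow and 8 were neither. These counts stand beside 7.56% and 9.51% of all genes. Prickle1, a cytoplasmic core component of planar polarity, stood at 8.27 RPKM in heart (2330 reads) and 0.303 in bone marrow (71 reads), 27.3-fold higher in heart (21.6 to 35.1). Nfatc1, a calcium-regulated transcription factor gene, had a log2 ratio of -1.75, the protein kinase C gene Prkca -1.21 and the calmodulin kinase gene Camk2g -0.55.

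**Figure D4:**
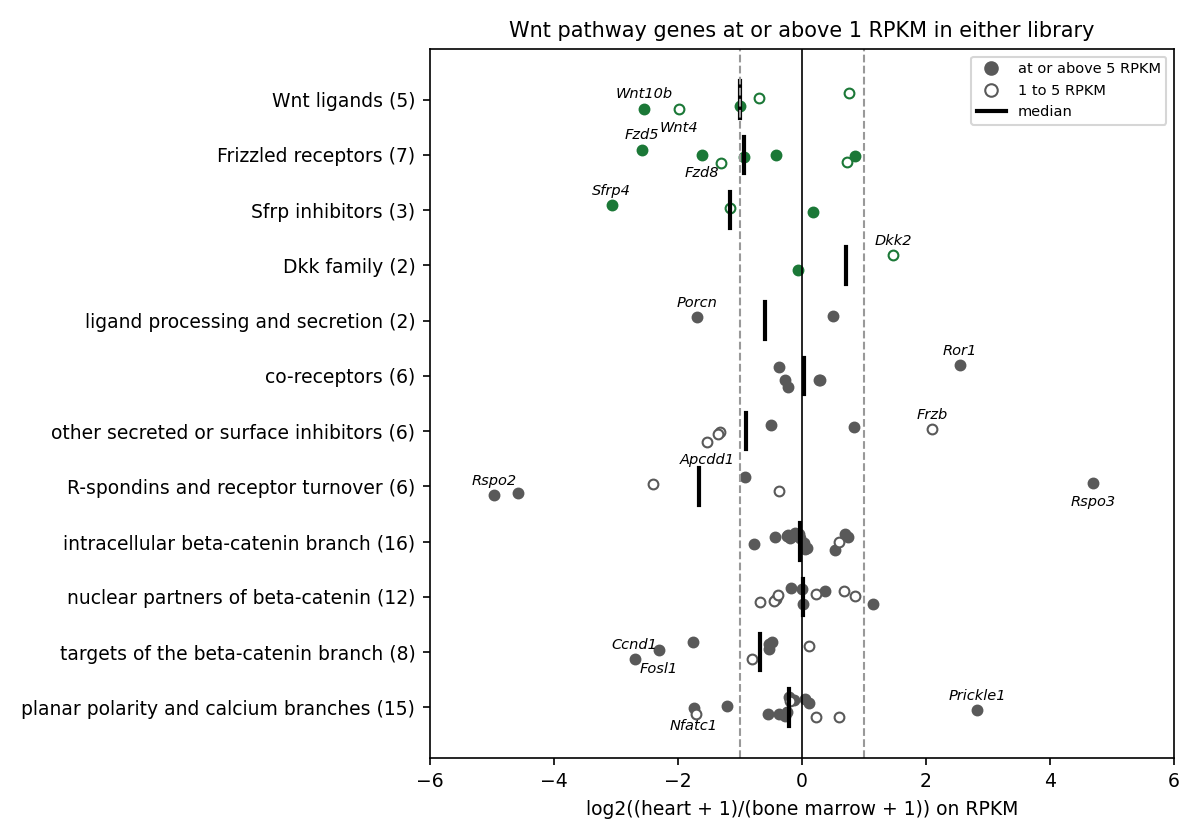
Log2 ratio of heart over bone marrow for genes at or above 1 RPKM, by family (green) and by list of other pathway genes (grey), with the number of genes in brackets, a black bar at each median and dashed lines at 2-fold. The genes of the intracellular beta-catenin list sit between the dashed lines, and Rspo2 and Rspo3 lie at opposite ends, at -4.97 and 4.69.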

How the data were processed

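One standard Illumina library per tissue was made from 1 ug of total RNA, per the labels' protocols. The values are RPKM in the tables the authors deposited, and no scaling between libraries is recorded. The aligner, the counter and whether strand was used: not given in the sources used here. The submitters' processing notes name the build mm8, but 45149 of 49585 rows (91.1%) match a GENCODE M21 gene model of GRCm38 in position, and coordinates are read on that build.

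Read totals were recovered because RPKM times exon-union length comes in whole multiples of 1 read. Of 14255 rows with a length and above 0 in both libraries, 12292 (86.2%) were whole in both within 0.02 reads, and 29 of the 37 genes had reads this way. For rows that were not whole, lengths from 0.67 to 1.5 times that of the model of the same name were searched. A length was taken when it was the only one there giving whole reads (tolerance 0.0002, at least 20 reads per library). Lengths outside that range or with fewer reads were not considered. The reads found can therefore be a whole multiple of the true ones. The search gave reads for 5 more genes and for 16 other pathway genes. The length found for Fzd8, 6692 bases, exceeds the span of its gene row, so its reads and interval are not used. On 8685 rows of known length, 7263 had 1 solution, and 7260 of these were right. There the range was set around the known length, so this check does not cover rows whose true length lies outside the range. Ratio intervals are exact conditional (Clopper-Pearson) 95% intervals of these reads. Reads are not independent molecules, so intervals and the floor of 3 reads cover counting error only.

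With 1 library per tissue no test, p-value or standard error was computed. Rows sharing a symbol were represented by the one with the highest mean (49492 symbols). The pseudocount of 1 RPKM understates differences of low genes. Of the 37 genes, 9 overlap another row, 5 of them in exon bases, and of these rows only Fbxl14 reached 1 RPKM. All 37 genes are accounted for. In each of the 8 lists of other pathway genes, the text names up to 4 genes of 5 RPKM or more that had the largest log2 ratios in size, with Axin2, Wls and Porcn. Frzb, Wif1, Apcdd1, Trabd2b, Nkd1, Nkd2, Jun and Bambi fall outside that rule. They, and the 5 promoters printed, were picked with their values in view. The genes and lists were chosen with earlier results of these data known. Alternatives were other pseudocounts, floors, thresholds and scalings, an interval rule and summed rows. Promoters are from RefSeq (GRCm38.p6). Tools were scipy 1.17.1, pandas 2.3.3, numpy 2.4.6 and matplotlib 3.10.9 under Python 3.11.15. The recovery, ratio and interval steps were tested on simulated data.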

Additional observations from a re-analysis of the deposited data

How the results depend on the processing

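No paired analysis was possible because each tissue has 1 library. The 4 genes of the families counted as higher in bone marrow became 7 with a floor of 1 RPKM or no floor and 0 with a floor of 20 RPKM, and the 0 counted in heart became 1 with a floor of 1 RPKM, no floor or scaling to a median ratio of 1. With a 4-fold threshold, 3 of the 4 were counted. A pseudocount of 0.1 counted 5, Wnt5a being added. Requiring the whole counting interval to lie beyond 2-fold also counted 4, with Wnt5a in and Sfrp4, which has no recovered reads, out. Fzd8 is among these 4, counted from reads that are not relied on here. The 8 other pathway genes higher in bone marrow became 13 with a floor of 1 RPKM or none, 5 with a pseudocount of 5 and 4 with a floor of 20 RPKM or a 4-fold threshold, and the 4 higher in heart became 1 with a floor of 20 RPKM. The median log2 ratio of the families, -0.93, was -1.26 and -0.38 with pseudocounts of 0.1 and 5. It was -0.79, -0.85 and -0.84 when scaled by the median ratio, the upper quartile and the RPKM sum, -0.96 over genes at or above 5 RPKM and -0.10 over all genes above 0. Of 102 log2 ratios of the 17 genes under 6 alternatives, 3 had another sign, all of them Dkk3 under scaling. Summed rows changed no value. Depth limits genes with few reads, such as Wnt2, whose interval of 0.122 to 1.54 holds a ratio of 1.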
